A study of Mus musculus with 45 samples.

Results

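The effect of GABPA loss was compared between late two-cell (L2C) embryos and morulae, as the interaction of treatment and stage: the log2 change with dTAG13 against DMSO at the late two-cell stage minus the same change at morula. The comparison used 10 of the 45 samples of the series, which are 10 of its 18 RNA-seq libraries. All 10 came from embryos homozygous for the Gabpa-dTAG allele, in which both copies of *Gabpa* carry a degron tag, so the DMSO controls carried the tagged protein too. L2C embryos received 1 μM dTAG13 (3 libraries) or the DMSO vehicle (3 libraries) from 6 h post fertilization (hpf) and were collected at 30 hpf. Morulae received 1 μM dTAG13 (2 libraries) or DMSO (2 libraries) from the four-cell stage at 42 hpf, and their collection time was not given in the sources used here. Embryos were made by in vitro fertilization from females aged 7 to 8 weeks and males aged 8 to 12 weeks, of a line founded by chimeras that were backcrossed to C57BL/6J. The number of embryos pooled in a library was not given. The study calls the 3 libraries per group at L2C biological replicates and states that RNA-seq was repeated. It does not say that libraries of a group came from separate parents or cultures, so p-values measure only the spread between these libraries. Part of that spread may be technical. The treatment window differed along with the stage, so the 2 cannot be told apart.

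GABPA is an ETS-family transcription factor that binds DNA through its ETS domain and recruits GABPB, which carries the activation domain. It is known for driving promoters of broadly expressed genes, among them nuclear genes for mitochondrial proteins, and its binding site has GGAA at its core. At the late two-cell stage the mouse embryo transcribes its own genome strongly for the first time and still holds much maternal RNA, whereas the morula runs mostly on embryonic transcripts. dTAG13 links the tag to a ubiquitin ligase, so the protein is removed while its mRNA can still be made.

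Expected counts summed to between 20449966 and 23718870 in the L2C libraries and to between 9457933 and 12382705 in morulae. L2C marker genes matched the label: *Zscan4d* lay between 20.6 and 57.2 FPKM (fragments per kilobase of transcript, scaled to library size) in the L2C libraries and at 0.51 or less in morulae, whereas *Krt8* lay between 164 and 182 FPKM in morulae and at 0.57 or less at L2C. L2C dTAG13 replicate 1 stood apart by markers of blood and immune cells. In that library *Lyz2*, a lysozyme of myeloid cells, was at 215 FPKM and *Tyrobp*, a signalling adaptor of myeloid cells, at 58.5 FPKM, against at most 6.07 and 0 in the other 9 libraries. The summed FPKM of the 17 listed markers was 944 there, 84.0 and 87.2 in the other L2C dTAG13 libraries, 72.8 to 85.1 with DMSO at L2C, and 37.4 to 59.7 in morulae, and *S100a8* and *S100a9* were at 0 in all 10 libraries. Of 22 cumulus and granulosa markers 3 could be tested and none of 10 sperm markers, with no interaction call among them. Of the 17 blood and immune markers 5 could be tested, of which 2 were called higher with dTAG13 at L2C and 0 in the interaction. Without that library 593 genes were called lower and 62 higher at L2C, and the part of these cells in the other results was not tested.

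*Gabpa* mRNA was not lowered by the treatment at either stage. dTAG13 acts on the protein, so the mRNA level does not report the degradation. *Gabpa* (chromosome 16, 84834925 to 84863779 of GRCm38, plus strand) was at 111, 125 and 90.9 FPKM with DMSO and at 170, 153 and 163 FPKM with dTAG13 at L2C. In morulae it was at 8.79 and 10.2 FPKM with DMSO and at 16.6 and 15.9 FPKM with dTAG13. The groups did not overlap at either stage, and the log2 changes of 0.57 (adjusted p = 0.00505) and 0.77 (adjusted p = 0.0243) differed by -0.20 (95% interval -0.61 to 0.21, adjusted p = 0.632), so no stage difference was detected. *Gabpb1*, which encodes a partner subunit, rose at morula from 25.0 and 37.3 to 72.6 and 70.6 FPKM (log2 1.32, adjusted p = 0.00515). At L2C its log2 change was 0.71 (adjusted p = 0.00436), and the difference of -0.61 between stages did not pass the test (adjusted p = 0.151). *Gabpb2* showed a difference of -0.08 (adjusted p = 0.904). All adjusted p-values come from quasi-likelihood tests in edgeR, adjusted by Benjamini-Hochberg over all tested genes.

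For most genes that depended on the stage, the fall with dTAG13 was deeper at L2C. Of 12631 genes tested, 455 had a lower effect at L2C than at morula (3.6% of genes tested) and 59 a higher one (0.467%), where a call took an adjusted p under 0.05, a difference of 2-fold or more, and 1 group out of 4 with an average FPKM of 1 or more. In the same fit 621 genes were called lower (4.92%) and 79 higher (0.625%) with dTAG13 at L2C, against 30 lower (0.238%) and 66 higher (0.523%) at morula. By the adjusted p alone, 5.15% of genes were lower and 0.523% higher in the interaction, 9.18% and 1.79% at L2C, and 0.34% and 1.05% at morula. Lower calls made up 88.5% of the interaction calls, between 80.1% and 85.1% under 3 other scalings, and 77.9% with DESeq2, which called 491 and 139 genes. The number of lower calls was 408 and that of higher calls 35 without L2C dTAG13 replicate 1, the library with blood and immune markers, and 379 and 32 of these were among the 455 and 59. It was 255 and 26 without morula DMSO replicate 1, 302 and 38 without morula dTAG13 replicate 2, and 667 and 107 without morula DMSO replicate 2. Higher calls also fell to 24 without morula dTAG13 replicate 1 and to 39 without L2C dTAG13 replicate 2. In all 10 fits that left out a library, 208 of the 455 lower and 9 of the 59 higher genes were called. In bulk libraries, fewer cells of a type and less RNA per cell cannot be told apart.

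**Figure D1:**
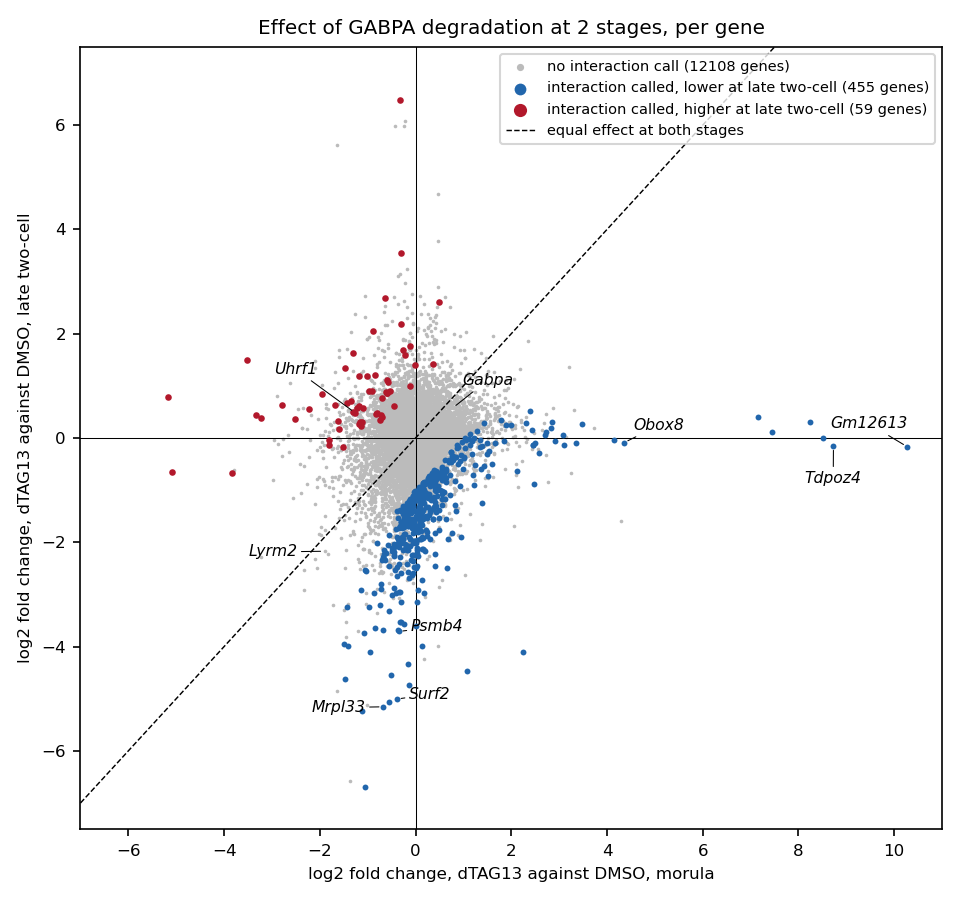
Log2 change with dTAG13 against DMSO at the late two-cell stage (vertical axis) against that at morula (horizontal axis), with 1 point per tested gene that has a symbol. Blue points are the 455 genes with a lower effect at L2C, which mostly lie below the horizontal axis near a morula change of 0 or to the right along it, red points are the 59 genes with a higher effect at L2C, and the dashed line marks an equal effect at both stages.

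The 455 genes split by what happened at each stage, as counted in the same libraries. The largest set, 306 genes, was called lower at L2C and not called at morula (285 genes without L2C dTAG13 replicate 1, of which 261 were among the 306). Their median log2 change was -1.66 at L2C and -0.05 at morula, and median FPKM went from 43.9 to 13.4 at L2C but from 49.4 to 44.3 in morulae. A 95% interval of the morula change that lies above a halving was found for 264 of the 306 (86.3%, against 68.1% of all tested genes), so for these a fall of that size in morulae was outside the interval, and for the others it was not. The interaction call that chose the 306 favours a morula change near or above 0. Their morula median and this share are therefore partly set by the choice of genes. A further 46 genes were called higher at morula and not called at L2C, 2 were called lower at both stages (*Eaf1* and *Itpa*), and 101 were called at neither. The last set had a median of -0.71 at L2C and 0.48 at morula, with a morula change above 0 in all 101 genes. A difference of 2-fold or more with an L2C fall under 2-fold gives a morula change above 0 by arithmetic. That sign thus follows largely from the choice of genes. No gene was called in opposite directions at the 2 stages. The DMSO mean was higher in morulae than at L2C for 59.2% of the 306, against 52.9% of all tested genes.

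Lower calls were most frequent among well expressed genes. Where the lower of the 2 DMSO means was at least 50 FPKM, 10.1% of 1619 genes were called lower and 0% higher. The shares called lower were 6.23% of 2775 genes between 10 and 50 FPKM, 1.73% of 5379 between 1 and 10, and 0.910% of 2858 under 1. Higher counts give a smaller error, and the part of precision in this order was not tested.

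Promoters of 5 genes are shown because the share of promoters with the ETS core word differed between these sets of genes. Each is the 300-base window from 250 bases before to 50 bases after the RefSeq start on GRCm38.p6, 5′ to 3′ on the gene's strand, with every match to CCGGAAG on either strand (CTTCCGG on the other) in capitals. *Surf2*, *Tufm* and *Mtx2* were called lower at L2C and not at morula, *Lyrm2* fell at both stages, and *Ubtfl1* rose at morula. The windows are chr2:26916158-26916457 (*Surf2*), chr7:126487105-126487404 (*Tufm*), chr2:74825562-74825861 (*Mtx2*), chr4:32800009-32800308 (*Lyrm2*) and chr9:18404168-18404467 (*Ubtfl1*), all on the plus strand.
Surf2: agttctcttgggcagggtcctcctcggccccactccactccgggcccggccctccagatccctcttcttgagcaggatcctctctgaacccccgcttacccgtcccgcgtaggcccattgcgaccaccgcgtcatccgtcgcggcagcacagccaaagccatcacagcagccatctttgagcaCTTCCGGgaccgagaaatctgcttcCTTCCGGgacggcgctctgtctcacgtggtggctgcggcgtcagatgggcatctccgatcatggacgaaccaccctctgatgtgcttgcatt
Tufm: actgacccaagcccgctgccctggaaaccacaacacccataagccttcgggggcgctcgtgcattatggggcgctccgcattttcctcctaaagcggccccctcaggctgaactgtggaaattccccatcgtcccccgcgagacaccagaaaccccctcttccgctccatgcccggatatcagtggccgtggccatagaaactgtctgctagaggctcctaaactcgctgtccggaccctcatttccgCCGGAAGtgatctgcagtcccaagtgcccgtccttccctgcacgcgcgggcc
Mtx2: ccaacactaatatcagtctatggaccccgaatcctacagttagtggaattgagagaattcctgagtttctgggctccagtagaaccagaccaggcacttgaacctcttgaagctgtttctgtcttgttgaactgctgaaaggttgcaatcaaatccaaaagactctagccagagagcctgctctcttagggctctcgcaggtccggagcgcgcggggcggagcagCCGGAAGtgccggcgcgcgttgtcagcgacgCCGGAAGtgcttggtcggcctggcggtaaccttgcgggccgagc
Lyrm2: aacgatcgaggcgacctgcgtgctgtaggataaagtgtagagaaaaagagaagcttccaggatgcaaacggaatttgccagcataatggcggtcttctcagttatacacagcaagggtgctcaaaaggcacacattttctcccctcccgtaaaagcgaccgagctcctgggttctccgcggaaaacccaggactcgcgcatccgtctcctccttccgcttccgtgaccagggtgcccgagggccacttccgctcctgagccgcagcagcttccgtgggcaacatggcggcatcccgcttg
Ubtfl1: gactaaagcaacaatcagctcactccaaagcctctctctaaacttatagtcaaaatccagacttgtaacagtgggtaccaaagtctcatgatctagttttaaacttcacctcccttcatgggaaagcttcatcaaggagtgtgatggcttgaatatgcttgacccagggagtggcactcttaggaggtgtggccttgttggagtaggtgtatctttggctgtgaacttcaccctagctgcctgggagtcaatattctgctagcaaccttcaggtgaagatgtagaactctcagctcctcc
Relative to the start, *Surf2* held matches at -67 and -42 on the opposite strand, *Tufm* at -2, and *Mtx2* at -25 and 7 on its own strand. *Lyrm2* and *Ubtfl1* held none, which says only that these letters are not in these windows. Of other genes with the largest lower differences, *Mrpl33* and *Bet1l* held 1 match each, and *Nubp1*, *Pdcd6* and *Psmb4* held none.

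Over all genes with a promoter in the table, CCGGAAG on either strand was found in 9.12% of 27025 windows and in 20.1% of the 9071 windows of tested genes. It was found in 70.2% of the 245 windows of the 306 genes with an interaction call that were called lower at L2C and not called at morula (172 windows), and 27.3% of them (67 windows) held 2 or more matches, against 3.97% of tested genes. The share was 46.0% of 248 windows for genes called lower at L2C without an interaction call, 4.35% of 23 for the 46 interaction genes called higher at morula and not called at L2C, and 15.9% of 44 for genes with a higher effect at L2C. Among the genes called lower at both stages it was 44.4% of 9 windows. The longer word CCGGAAGT, which contains the shorter one, was in 43.3% of the 245 windows and 9.38% of tested ones. Letters of other promoter factors were not more frequent there: GCGCATGCG (NRF1) was in 3.67% against 4.09%, AAGATGGCG (YY1) in 2.04% against 3.63%, TCTCGCGAG (ZBTB33) in 1.63% against 1.76% and GGGGCGGGG (SP factors) in 14.7% against 21.9%. A match describes a window and is not a measured binding site, and the part of expression level in these shares was not tested. Without L2C dTAG13 replicate 1 the sets at 70.2%, 46.0% and 4.35% had shares of 69.8% of 225, 49.4% of 237 and 5.56% of 18 windows. The share for genes called lower at both stages was then 42.9% of 7.

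*Surf2* and *Surf1* fell to a small share of their control level at L2C and kept most of it in morulae, where neither was called. They are divergent neighbours of the surfeit cluster on chromosome 2 (26916367 to 26920183, plus strand, and 26913381 to 26916530, minus strand), and *Surf1* encodes an assembly factor of cytochrome c oxidase. *Surf2* was at 92.1, 104 and 96.8 FPKM with DMSO and at 1.2, 2.18 and 3.6 with dTAG13 at L2C, and in morulae it went from 73.7 and 97.2 to 55.6 and 64.4. The group means left 2.39% of the control level at L2C and 70.2% at morula, without overlap at either stage. The log2 changes of -5.00 and -0.39 differed by -4.62 (SE 0.37, 95% interval -5.42 to -3.82, adjusted p = 2.2e-05). *Surf1* differed by -3.32 (adjusted p = 0.000117), with 8.15% of its control level left at L2C and 77.3% at morula. Their first exons overlap on opposite strands, and these libraries do not keep strand.

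Genes of the mitochondrial genetic system included *Mrpl33*, a protein of the large mitochondrial ribosomal subunit, and *Tufm*, the mitochondrial translation elongation factor. *Mrpl33* was at 100.1, 86.8 and 86.6 FPKM with DMSO and at 2.47, 2.04 and 2.46 with dTAG13 at L2C. In morulae it was much higher and was at 1132 and 1035 FPKM with DMSO and at 557 and 712 with dTAG13. Groups did not overlap at either stage, the morula change of -0.68 missed the threshold (adjusted p = 0.0672), and the stage difference was -4.48 (SE 0.26, adjusted p = 1.37e-06). *Tufm* was at 15.5, 17.2 and 13.5 FPKM with DMSO and at 0, 0.43 and 1.00 with dTAG13 at L2C, and went from 68.7 and 67.0 to 28.1 and 30.02 in morulae. Its difference was -4.10 (adjusted p = 0.0057), beside a morula change of -1.13 that did not pass the test (adjusted p = 0.282), and 58.2% of its 31-base words also occur in *Gm9755*. *Tufm* had 0 to 34 counts in the L2C dTAG13 libraries and was not called with DESeq2. *Mtx2*, a metaxin of the outer mitochondrial membrane, fell to 10.9% of its control at L2C and stood at 101.9% in morulae, where its log2 change was 0.00 (95% interval -0.59 to 0.59), a stage difference of -3.61 (adjusted p = 0.000163). *Pmpca*, a subunit of the peptidase that trims imported proteins, differed by -3.31 (adjusted p = 0.00012), with 20.4% of its exonic bases under exons of the antisense gene *Inpp5e*. *Tfam*, which packages mitochondrial DNA, was at 11.3 to 14.9 FPKM with DMSO and at 2.35, 3.00 and 7.05 with dTAG13 at L2C and at 26.1 to 30.4 in all morula libraries. Its difference of -1.68 (adjusted p = 0.0263) was lost in 6 of the 10 fits that left out a library, with the highest adjusted p, 0.124, without morula DMSO replicate 1.

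Outside mitochondria, the named genes with the largest lower effects at L2C encode parts of many basic systems, and none of those that follow was called at morula. *Psmb4*, a subunit of the proteasome core, was at 187 to 248 FPKM with DMSO and at 14.6 to 22.3 with dTAG13 at L2C, and in morulae, also without overlap, it went from 678 and 579 to 404 and 439 (log2 -0.35, adjusted p = 0.408). It differed by -3.36 (adjusted p = 2.19e-05), and *Psmc1*, an ATPase of the proteasome cap, by -2.96 (adjusted p = 0.000117), with 32.2% of its words shared with other genes. *Pdcd6*, a calcium-binding protein, differed by -4.17, *Rnaseh2b*, a subunit of ribonuclease H2, by -4.13 and *Bet1l*, a SNARE protein of the Golgi, by -4.03 (adjusted p from 2.2e-05 to 0.00125). *Nubp1*, an iron-sulfur cluster assembly factor, differed by -4.50 (adjusted p = 0.00158), but lay at 0 to 0.42 FPKM in the L2C dTAG13 libraries and has 36.9% of its exonic bases under exons of the antisense gene *Tvp23a*. *Gm49383* differed by -4.58 (adjusted p = 2.2e-05), and 92.5% of its words are shared with other genes, mostly *Dnaaf2* and *Rpl36al*, so its reads cannot be assigned to it with certainty. In L2C embryos the groups of all these genes were apart, as for 16.4% of all tested genes in the lower direction. In morulae those of *Psmb4*, *Bet1l*, *Nubp1* and *Gm49383* were apart too, with 67.0%, 66.1%, 62.1% and 84.4% of the control level left, as for 27.6% of all tested genes.

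**Figure D2:**
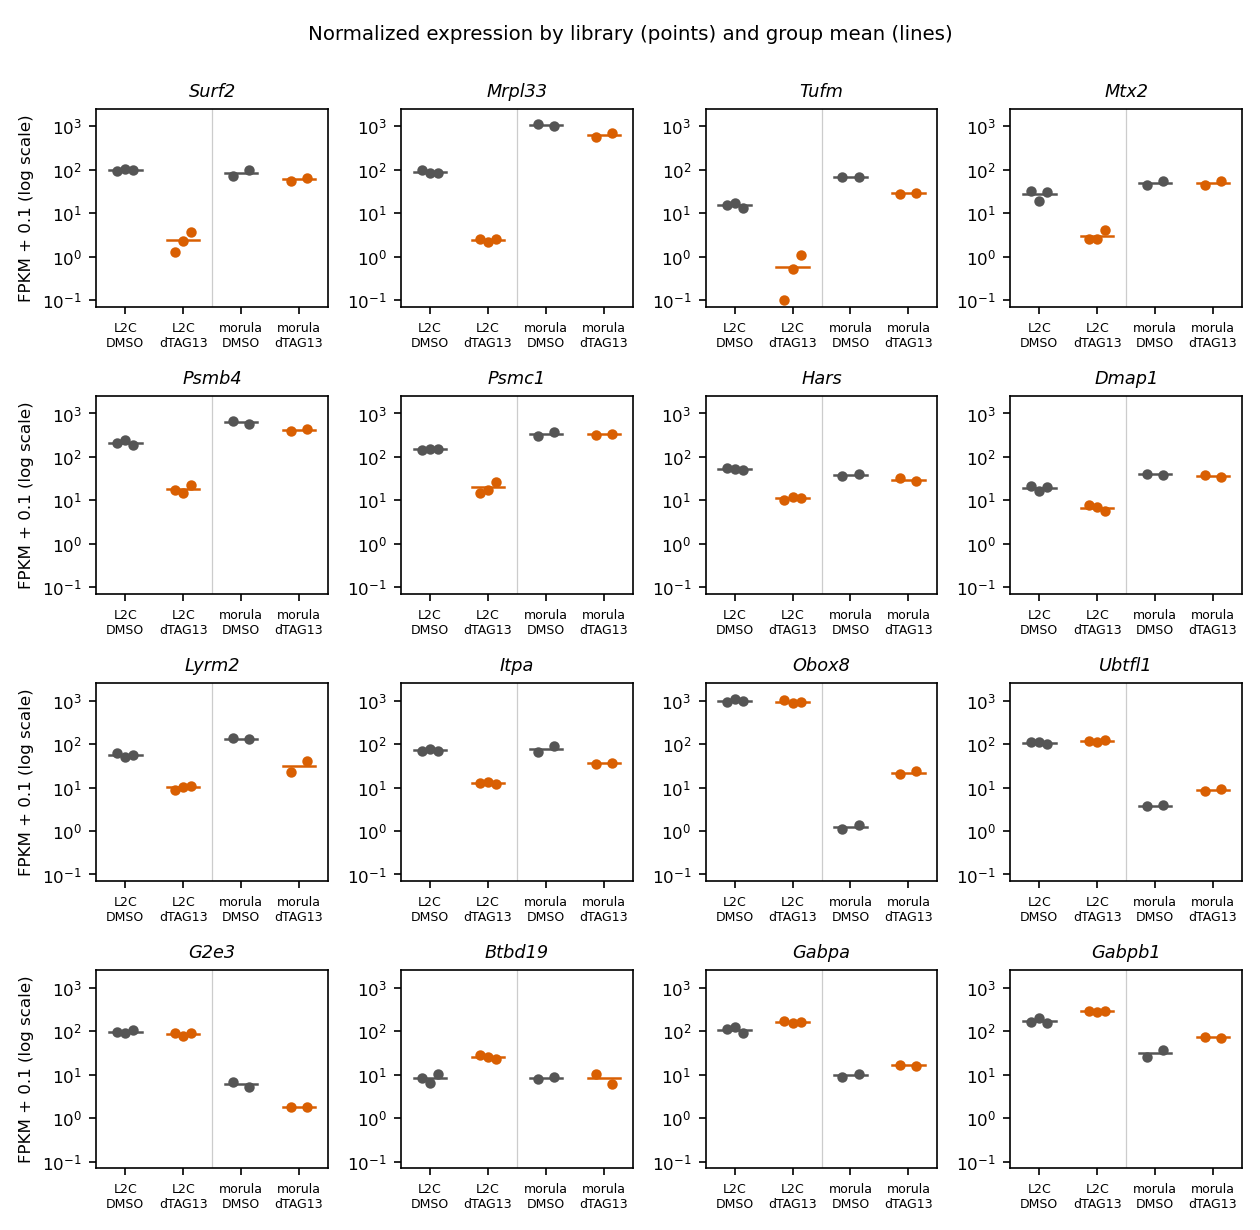
FPKM + 0.1 on a log axis for 16 genes, with 1 point per library and a line at each group mean, grey for DMSO and orange for dTAG13, late two-cell (L2C) libraries left and morula libraries right in each panel. *Surf2*, *Mrpl33*, *Tufm*, *Mtx2*, *Psmb4*, *Psmc1*, *Hars* and *Dmap1* drop further at L2C, *Lyrm2* and *Itpa* drop at both stages, and *Obox8* and *Ubtfl1* differ between treatments in morulae only.

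Lists of genes were counted by function, each count against the 3.6% of all tested genes called lower and the median difference of -0.07 over all genes. Among 83 mitochondrial ribosomal proteins 21 had a lower effect at L2C (25.3%) and none a higher one, with a median log2 difference of -0.44, and medians of -0.29 at L2C and 0.07 at morula. *Mrps18a* differed by -3.19 (adjusted p = 7.59e-06), from 40.8 to 45.7 FPKM with DMSO at L2C against 4.11 to 5.73 with dTAG13, beside 212 to 240 in all morula libraries. *Mrps34* differed by -3.20, but 63.4% of its exonic bases lie under the antisense gene *Mapk8ip3*. In protein import into mitochondria 12 of 39 genes were called lower (30.8%, median -0.44), such as *Mtx2*, *Pmpca* and *Tomm5*, a small subunit of the outer membrane translocase that differed by -1.18. Among assembly factors of respiratory complexes 8 of 49 were called (*Surf1*, *Cox16* by -2.62, *Cox17*, a copper chaperone, by -1.44), among respiratory chain subunits 8 of 79 (*Ndufb9* by -1.96, *Ndufa12* by -1.74, *Cox7a2* by -1.23), and among factors of mitochondrial translation and DNA 5 of 45 (*Tufm*, *Tfam*, and *Rars2* by -1.73). The median differences of these 3 lists were -0.41, -0.35 and -0.18. *Cox16* shares 55.2% of its words with the overlapping *Gm20498*. Without morula DMSO replicate 1 the counts for mitochondrial translation and for assembly factors fell to 1 and 4. The call of *Rars2* was lost in 3 of the 10 fits without a library. Without L2C dTAG13 replicate 1 the counts were 20 for mitochondrial ribosomal proteins, 11 for protein import, 8 for assembly factors, 9 for respiratory chain subunits and 3 for mitochondrial translation and DNA.

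The proteasome list had the largest median difference between stages among the lists of cell machinery, at -0.67. Of its 49 subunits and chaperones 13 were called lower (26.5%), a smaller share than the 30.8% of mitochondrial protein import. Medians were -0.30 at L2C and 0.23 at morula, and 8 of 49 genes had a morula change below 0, against 47.4% of all tested genes. No proteasome gene was called higher at morula. Of the 13 genes, 8 were also called lower at L2C, among them *Psmb4*, *Psmc1* and *Psmd13*, which differed by -1.94. The others, such as *Psmc5*, which was named after its values were seen, combined a smaller fall with a change of the other sign, -0.73 at L2C and 0.39 at morula. Where the L2C fall is under 2-fold, a difference of 2-fold or more sets that sign at morula. The count was 9 without morula DMSO replicate 1, 17 without morula DMSO replicate 2 and 14 without L2C dTAG13 replicate 1.

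Genes of RNA and protein production behaved unequally. Among ribosome assembly factors 14 of 126 were called lower (11.1%, median -0.35), such as *Ebna1bp2* (-1.64), and led by *Gnl2*, a GTPase of the large subunit pathway, which went from 40.0 to 56.2 FPKM to 9.54 to 11.6 at L2C and from 56.7 and 50.4 to 43.9 and 39.8 in morulae, a difference of -2.27 (adjusted p = 0.000108). FPKM is divided by the transcript length that RSEM estimated in each library and log2 changes are fitted to scaled counts, so the 2 can differ. For *Gnl2* the log2 change at morula was 0.14 although FPKM fell. The part of length or scaling in this was not tested. *Dcaf13*, a factor of small subunit processing, moved in opposite directions, from 260, 281 and 269 FPKM to 171, 194 and 170 at L2C (log2 -0.60, adjusted p = 0.00688) and from 138 and 148 to 224 and 224 in morulae (log2 1.00, adjusted p = 0.0124). By contrast 0 of 85 cytosolic ribosomal proteins were called, and 2 of them had an adjusted p under 0.05. An unadjusted p under 0.05 was found for 10 of the 85, against 2424 of all 12631 tested genes. DESeq2 called 0 and limma voom 1. The median difference was -0.11, which turned to 0.04 when only library totals were used for scaling. Of spliceosomal proteins 6 of 47 were called (*Snrnp200*, a helicase, by -1.86, *Snrpb*, a core protein, by -1.58 and *Sf3b6* by -1.02), of cytosolic tRNA synthetases 3 of 22 (*Hars* by -2.50, *Rars* by -2.18, *Cars* by -1.38), and of RNA polymerase subunits 1 of 31 (*Polr2m* by -1.996). Among DNA replication factors 3 of 49 were called, *Rfc3* by -2.40, *Orc4* by -1.39 and *Orc3* by -1.31, and none without morula DMSO replicate 1. Without morula DMSO replicate 2 the count for ribosome assembly was 22 and that for DNA replication 5, and without morula dTAG13 replicate 2 the count for spliceosomal proteins was 3. The calls of *Cars*, *Rfc3*, *Orc3*, *Orc4* and *Sf3b6* were each lost in 2 to 7 of the 10 fits without a library.

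Of 4 further genes, which come from tracks of L2C embryos in a published figure panel, *Zpr1*, a zinc finger protein, differed by -1.61 (adjusted p = 0.000985), *Dmap1*, a subunit of chromatin-modifying complexes, by -1.55 (adjusted p = 0.0024) and *Dnajc2*, a ribosome-associated chaperone, by -1.11 (adjusted p = 0.00966), which was lost without morula DMSO replicate 1 (adjusted p = 0.0525) or morula dTAG13 replicate 1 (adjusted p = 0.0581). *Dmap1* was at 16.5 to 21.7 FPKM with DMSO and 5.75 to 7.62 with dTAG13 at L2C, and at 34.8 to 39.8 in all morula libraries (log2 change 0.00). *Noc3l*, a nucleolar protein, showed no stage difference past the test (-0.42, adjusted p = 0.287), with log2 changes of -1.06 at L2C and -0.64 at morula. In the list of 35 other activators of broadly expressed genes *Dmap1* was the one call, and in the list of 14 GABP and ETS genes *Etv3* was (-2.46, adjusted p = 0.0344), a call lost in 8 of the 10 fits without a library.

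**Figure D3:**
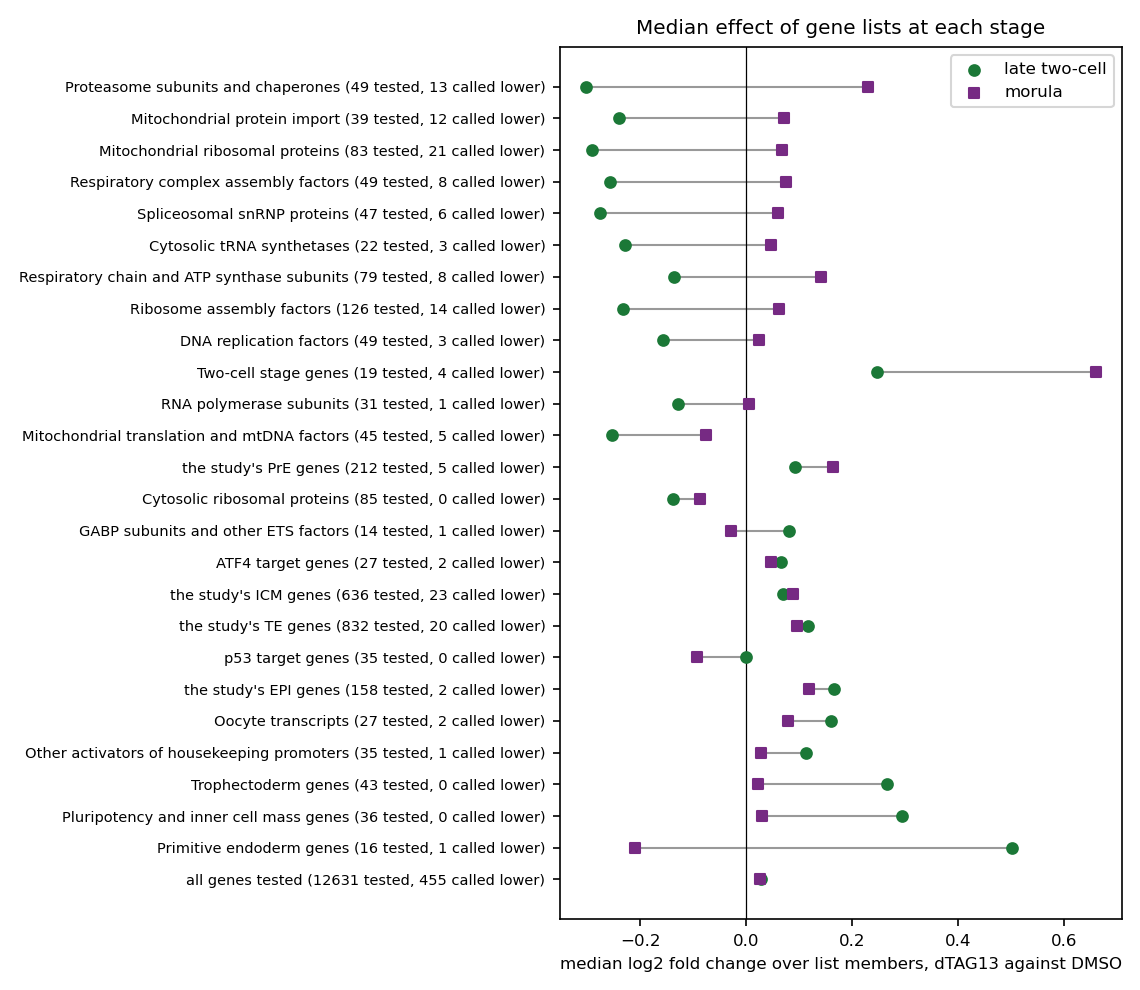
Median log2 change with dTAG13 against DMSO over the tested members of each list, as a green circle for late two-cell and a purple square for morula, with the number tested and the number called lower in the interaction beside each name. Lists of cell machinery sit left of 0 at L2C, from -0.30 for the proteasome to -0.13 for RNA polymerase subunits, and mostly near 0 at morula.

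Morula medians that lie within 0.1 of 0 depend on the scaling. Scaled by library totals alone, medians at morula became -0.04 for mitochondrial ribosomal proteins and protein import, -0.03 for assembly factors of respiratory complexes and -0.05 for ribosome assembly and spliceosomal proteins. Those of the proteasome (0.12) and of respiratory chain subunits (0.03) stayed above 0. The median difference between stages stayed below 0 under all 4 scalings for every list of cell machinery other than cytosolic ribosomal proteins, while that over all genes ranged from -0.07 to 0.08.

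Of the 621 genes called lower at L2C, 308 (49.6%) had an interaction call and 313 did not. The 313 had a median log2 change of -1.37 at L2C and -0.44 at morula, and the morula change was below 0 in 280 of them (89.5%), with an adjusted p under 0.05 in 15. The absence of an interaction call favours the same sign at both stages, so that share is partly set by the choice of genes. Over all 621 genes, which L2C calls alone chose, it was 72.95%, against 47.4% of all tested genes. Control expression of the 313 was lower than that of the 306 genes above, at a median of 7.14 FPKM at L2C and 9.45 in morulae. A morula interval above a halving was found for 37.7% of the 313, and for the others of the 313 a fall of that size in morulae lay within the interval.

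Only 10 genes were called lower at both stages, and 8 of them without an interaction call. *Lyrm2*, a LYR-motif protein of mitochondria, was at 60.7, 50.8 and 56.0 FPKM with DMSO and 8.59, 10.3 and 10.96 with dTAG13 at L2C, and in morulae it went from 135 and 127 to 22.2 and 40.8. It kept 17.8% and 24.0% of its control level, and its log2 changes of -2.17 and -1.90 differed by -0.27 (95% interval -1.01 to 0.46, adjusted p = 0.73). The others were *Trim11*, a ubiquitin ligase (-1.83 at L2C and -2.02 at morula), *Ccdc137* (-1.92 and -1.55), *Mapk1ip1l* (-1.53 and -1.61), *Zfp384*, a zinc finger factor (-1.26 and -1.45), *Gm14124* (-1.73 and -1.68), *Dmwd* (-1.22 and -1.61) and *Mettl6*, a tRNA methyltransferase (-2.32 and -1.21, difference adjusted p = 0.0515). *Eaf1*, a partner of the elongation factor ELL, and *Itpa*, which clears inosine triphosphate, fell at both stages but further at L2C. *Itpa* was at 67.6 to 78.2 FPKM with DMSO and 12.0 to 13.0 with dTAG13 at L2C, and at 67.0 and 91.0 against 35.3 and 36.0 in morulae, a difference of -1.49 (adjusted p = 0.00219), and *Eaf1* differed by -1.80 (adjusted p = 0.00604). *Eaf1* and *Mettl6* lie head to head on chromosome 14, from 31494399 and up to 31495040, so their first exons overlap on opposite strands. *Eaf1*, *Itpa*, *Mettl6* and *Dmwd* were named after their values were seen, and 42.2% of the words of *Gm14124* occur in other genes.

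A second, smaller pattern came from morulae, in which 46 genes rose with dTAG13 and were not called at L2C. Of the 46, 8 had 3 counts or fewer in both morula DMSO libraries. These 8 passed the filter at morula only through the dTAG13 libraries, so the filter set their direction there. Most of the 46 genes were more abundant in L2C embryos than in morulae. Median FPKM was 82.6 in L2C controls and 1.80 in morula controls, where it became 8.995 with dTAG13. In DMSO, 45 of the 46 were higher at L2C. DMSO means were 5 FPKM or more at both stages for 12 of the 46, such as *Dcaf13*. *Obox8*, a homeobox gene of the two-cell embryo, was at 921 to 1076 FPKM with DMSO and 897 to 1016 with dTAG13 at L2C, with overlapping groups. In morulae it went from 1.03 and 1.25 to 20.7 and 23.4 FPKM, a log2 change of 4.36, so the stage difference was -4.45 (SE 0.24, adjusted p = 1.37e-06). *Obox6* rose at morula from 23.4 and 33.2 to 173 and 126 FPKM, beside 1043 to 1166 in all L2C libraries, a difference of -2.59 (adjusted p = 2.87e-05).

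Of 40 genes of the two-cell list 19 passed the filter and were tested. Of these 19, 4 were called lower in the interaction (21.1%), and 3 of the 4 were called higher at morula. The count was 2 without morula dTAG13 replicate 2. *Ubtfl1* rose from 3.68 and 3.79 to 8.35 and 9.2 FPKM in morulae and was at 98.2 to 124 at L2C in both groups (difference -1.15, adjusted p = 0.0024). *Arg2*, a mitochondrial arginase, rose from 2.67 and 4.15 to 11.1 and 12.4 FPKM in morulae (difference -1.64, adjusted p = 0.00503). *Tdpoz4* was at 0 in both morula controls and at 4.77 and 1.73 FPKM with dTAG13, at least 9.85-fold higher against a floor of 3 counts per library, and could not be tested with either morula dTAG13 library left out. At morula it passed the filter only through those libraries, so the filter set its direction. *Trim43c* rose from 3.28 and 5.98 to 36.0 and 21.1 FPKM (difference -2.65, adjusted p = 0.000343). Reads of *Tdpoz4* and *Trim43c* are uncertain, as 64.6% and 58.6% of their words occur in other genes. Summed over the list, FPKM was 724 and 944 in morula controls and 954 and 1035 with dTAG13, against 2956 to 3735 with DMSO and 3352 to 4204 with dTAG13 at L2C.

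Single genes of other lists had a lower effect at L2C, and *Gata4*, *Omt2b* and *Nupr1* among them were called higher at morula. *Gata4*, a factor of the primitive endoderm, was at 7.93 to 12.7 FPKM at L2C in both groups and at 0.09 and 0.24 against 0.54 and 0.66 FPKM in morulae. These are 4 counts with DMSO and 32 with dTAG13, a ratio per library total of 6.90 (exact 95% interval 2.45 to 26.8, for counting error only), and its call (difference -2.53, adjusted p = 0.0173) was lost or could not be tested when any 1 of the 4 morula libraries was left out. *Omt2b*, an oocyte transcript very abundant at L2C, rose from 2.06 and 1.91 to 6.15 and 6.93 FPKM in morulae (difference -1.45, adjusted p = 0.0165, lost in 3 of the 10 fits without a library), and *Oog1* differed by -2.29 without a call at morula (adjusted p = 0.0611), with 93.4% shared words and a call that was lost or could not be tested in 9 of 10 such fits. Of 27 ATF4 target genes 2 were called, *Psph*, an enzyme of serine synthesis (-1.43, with log2 changes of -0.71 at L2C and 0.72 at morula, adjusted p = 0.019 and 0.124, lost without morula dTAG13 replicate 2), and *Nupr1* (-1.73, lost in 8 of 10 such fits), and none of 35 p53 target genes. None of 36 pluripotency genes, 43 trophectoderm genes or 5 tested blood and immune markers had an interaction call, while 2 and 0 of the pluripotency and trophectoderm genes had an adjusted p under 0.05. At an unadjusted p under 0.05 there were 6 of 35 p53 target genes, 9 of 36 pluripotency genes, 5 of 43 trophectoderm genes and 3 of 5 blood and immune markers. Over all 12631 tested genes there were 2424. DESeq2 called 1 p53 target gene and 2 pluripotency genes, limma voom 1 pluripotency gene.

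In the lists that the study made from public embryo data of other work, calls were 23 lower and 7 higher among 636 ICM genes, 20 and 7 among 832 TE genes, 2 and 0 among 158 EPI genes and 5 and 3 among 212 PrE genes. The shares called lower, 3.62%, 2.40%, 1.27% and 2.36%, were near or below the 3.6% of all tested genes. Those called higher were 1.10%, 0.841%, 0% and 1.42%, against 0.467%. The counts moved with single libraries. Lower calls were 12 among ICM, 9 among TE and 3 among PrE genes without morula DMSO replicate 1, and 44 among ICM, 4 among EPI and 12 among PrE genes without morula DMSO replicate 2. They were 15 among ICM and 8 among PrE genes without morula dTAG13 replicate 1, 12 among TE and 2 among PrE genes without morula dTAG13 replicate 2, and 12 among TE genes without L2C DMSO replicate 3. Higher calls among TE genes ranged from 1 (without morula dTAG13 replicate 1) to 11 (without morula DMSO replicate 2), with 2 without morula DMSO replicate 1 or morula dTAG13 replicate 2 and 4 without L2C DMSO replicate 2, L2C dTAG13 replicate 1 or L2C dTAG13 replicate 2. Without morula dTAG13 replicate 1 there were 3 higher calls among ICM and 1 among PrE genes, without morula dTAG13 replicate 2 there were 0 among PrE genes, and without L2C or morula DMSO replicate 2 there was 1 among EPI genes. Lower calls among TE genes included *Pfn1*, an actin-binding profilin (-1.74), and 2 overlapping gene models of *Myl12b*, a myosin light chain (-2.04 and -2.56), which share 25.96% and 97.2% of their words with other genes. Those among ICM genes included *Obox6*, *Trim43c* and *Rpl39l*, a ribosomal protein paralogue (-1.34). *Eif4ebp1*, an inhibitor of translation initiation, (-1.16) and *Gsta4* (-1.21) were the EPI calls. *Derl1* (-2.30), *Selenok* (-1.40) and *H13* (-1.15), proteins of the endoplasmic reticulum, had the smallest p-values of the interaction test among the PrE calls. By size of difference *Cst3* and *Gata4* (both -2.53) were the largest lower ones. The call of *H13* was lost without morula dTAG13 replicate 2 (difference -1.13).

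The 59 genes with a higher effect at L2C were weakly expressed, with a median of 2.83 FPKM in L2C controls and 4.84 in morula controls. Of these, 16 were called higher at L2C, 11 were called lower at morula, and 32 were called at neither stage. *Btbd19*, a BTB-domain gene, rose at L2C from 6.16 to 10.0 FPKM to 23.4 to 28.2 and lay at 6.12 to 10.3 in all morula libraries (difference 1.88, adjusted p = 0.00826). *Rpgrip1*, a ciliary protein, combined both directions, from 18.3 to 21.5 FPKM to 28.6 to 36.9 at L2C and from 20.7 and 22.0 to 12.3 and 13.5 in morulae (difference 1.87, adjusted p = 0.000593). *G2e3*, a ubiquitin ligase, was at 77.4 to 107 FPKM in all L2C libraries and fell at morula from 6.84 and 5.23 to 1.71 and 1.74 (difference 1.33, adjusted p = 0.00291). *Rsbn1l* differed by 1.29 (adjusted p = 0.00991), with 40.6% of its exonic bases under an antisense gene. *Upp1*, uridine phosphorylase (1.66), *Igf2bp1*, an RNA-binding protein (1.46), *Klhdc2* (1.43), *Cfap97* (1.09), *Aven* (1.10) and *Ipo9*, an importin (1.07), had adjusted p-values from 0.0159 to 0.0499, and each lost its call in 1 to 8 of the 10 fits without a library.

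Of 27 genes of the primitive endoderm list 16 were tested. Of the 16, 2 had a higher effect at L2C, *Sparc* and *Col4a2*, which encode matrix proteins, and 1, *Gata4*, a lower one. *Col4a2* at L2C and *Gata4* at morula passed the filter only through dTAG13 libraries, so the filter set the direction of these changes. *Sparc* was at 2.22 to 2.79 FPKM with DMSO and at 11.02, 8.52 and 6.55 with dTAG13 at L2C, and at 2.85 to 5.41 in morulae (difference 1.95, adjusted p = 0.0199). The highest of these values is that of the library with blood and immune markers, without which the adjusted p was 0.0522, and the call was also lost without either morula dTAG13 library. *Col4a2* was at 0.02 FPKM or less with DMSO and at 0.08 to 0.13 with dTAG13 at L2C, and at 1.92 to 3.15 in morulae, so its call (adjusted p = 0.0158) rests on L2C controls with 3 counts or fewer, and was lost without morula dTAG13 replicate 2 (adjusted p = 0.0635). Named after their values were seen, *Uhrf1*, which maintains DNA methylation, fell at morula from 16.4 and 14.4 to 5.76 and 6.27 FPKM and stood at 3.44 to 5.37 at L2C (difference 1.75, adjusted p = 0.00159, 24.3% of words shared with other genes), and *Abracl*, an actin regulator, fell from 29.0 and 22.1 to 5.42 and 4.85 (difference 2.81, adjusted p = 0.00225).

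The E4.5 ICM and 2iES cells gave a view of the same genes in libraries that the interaction did not use, with 2 DMSO and 2 dTAG13 libraries each (1 μM in embryos, 0.5 μM for 24 h in ES cells kept in 2i medium) and the same rule for a call. Of tested genes, 13.3% were called lower with dTAG13 in the ICM and 17.6% in 2iES cells. Among the 306 genes with an interaction call that were called lower at L2C and not called at morula, 137 of 304 (45.1%) were called lower in the ICM and 178 of 303 (58.7%) in 2iES cells, with median log2 changes of -0.96 and -1.36. Both were called for 115 of 302 genes (38.1%), against 7.71% of all genes tested in both. With DMSO means of at least 10 FPKM at both early stages, the shares were 46.3% against 12.4% in the ICM and 62.2% against 20.6% in 2iES cells. Log2 changes in the ICM and in 2iES cells were -3.76 and -4.15 for *Surf2*, -3.66 and -4.10 for *Psmb4* and -3.73 and -4.60 for *Rnaseh2b*, while *Bet1l* changed by -1.84 in the ICM and by 0.05 (adjusted p = 0.78) in 2iES cells.

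Genes called lower at L2C without an interaction call had shares near those of the 306 genes: 151 of 311 (48.6%) were called lower in the ICM and 171 of 306 (55.9%) in 2iES cells. All 10 genes called lower at both early stages were called lower in the ICM and 7 in 2iES cells, with *Lyrm2* changing by -5.03 and -6.83. For the 46 genes that rose at morula, 12 of 36 (33.3%) were called higher in the ICM, against 10.3% of all tested genes, and 5 of 28 (17.9%) in 2iES cells, against 11.3%. *Arg2* had a log2 change of 4.60 in the ICM and *Obox6* one of -0.81 (adjusted p = 0.0034). Of the 11 genes called lower at morula with a higher effect at L2C, 6 were called lower in the ICM, such as *G2e3* (-2.01) and *Uhrf1* (-1.23).

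**Figure D4:**
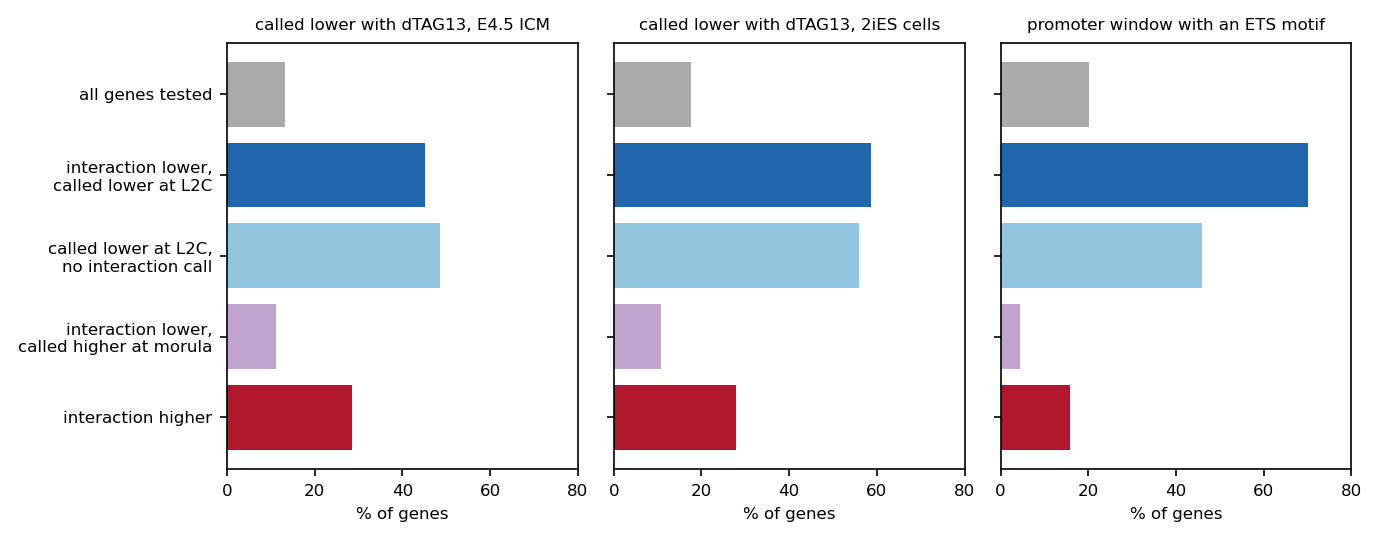
Shares, in percent from 0, of all tested genes and of 4 gene sets that were called lower with dTAG13 in the E4.5 ICM, called lower in 2iES cells, or had CCGGAAG in the 300-base promoter window. Both sets called lower at the late two-cell stage are between 45.1% and 58.7% in the 2 later samples, against 13.3% and 17.6% of all genes, and the motif share falls from 70.2% to 46.0% between the set with an interaction call and the set without.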

How the data were processed

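RNA-seq libraries of Gabpa-dTAG embryos were made with a SMART-Seq v4 and Nextera XT protocol that does not keep strand. The authors trimmed reads with Trimmomatic 0.39, mapped them to GRCm38 with STAR and quantified genes with RSEM. The deposited tables hold, per library and gene, expected counts, FPKM and TPM as RSEM gives them, of which expected counts (rounded to whole numbers) were tested, FPKM were printed as levels and TPM were not used. The release of the gene models was not given in the sources used here; coordinates and overlaps are from GENCODE M21 (GRCm38), in which 55144 of 55385 identifiers had a symbol.

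Genes that reached 10 counts in 2 or more libraries of each stage were scaled by TMM and fitted in edgeR 4.0.16 (R 4.3.3) with 1 mean per group over the 10 libraries, so both stages shared 1 estimate of the spread. Quasi-likelihood tests gave the effect at each stage and the interaction, with Benjamini-Hochberg adjustment over all 12631 genes. A call needs an adjusted p under 0.05, a 2-fold change and an FPKM mean of 1 in some group. The biological coefficient of variation was 0.222. Scripts were tested on simulated data. The ICM and 2iES cell libraries were fitted in the same way, each stage alone.

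Named genes were the GABP subunits, the 10 protein-coding genes per direction with the largest difference among those at 5 FPKM or more with DMSO at both stages, up to 3 called genes of each list by p, 6 genes lower at both stages, and 4 genes of a figure panel of the study, and the text says where others were added. Genes and lists were chosen with earlier results of these data known. Shared words are 31-base words of a gene's transcripts found in another gene. Alternatives were 14 other settings (scaling, filter, thresholds, tool, libraries fitted, depth, replicate block) and leaving out each of the 10 libraries. The other series samples were not used here.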

Additional observations from a re-analysis of the deposited data

Results flagged for a closer look

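The test of the difference itself, the treatment by stage interaction in edgeR's quasi-likelihood fit with adjustment over all genes, set apart 455 genes with a lower effect at the late two-cell stage and 59 with a higher one. The values below are the log2 effect at L2C minus that at morula, for each named gene past the threshold.

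Among the most strongly differing expressed genes the difference was -4.62 for Surf2, -4.58 for Gm49383, -4.50 for Nubp1, -4.48 for Mrpl33, -4.17 for Pdcd6, -4.13 for Rnaseh2b, -4.10 for Tufm, -4.03 for Bet1l, -3.61 for Mtx2 and -3.36 for Psmb4. In mitochondrial lists it was -3.20 for Mrps34, -3.19 for Mrps18a, -1.73 for Rars2, -1.68 for Tfam, -1.74 for Ndufa12, -1.23 for Cox7a2, -1.96 for Ndufb9, -3.32 for Surf1, -2.62 for Cox16, -1.44 for Cox17, -3.31 for Pmpca and -1.18 for Tomm5. In lists of RNA, protein and DNA machinery it was -2.27 for Gnl2, -1.64 for Ebna1bp2, -1.603 for Dcaf13, -1.996 for Polr2m, -2.96 for Psmc1, -1.94 for Psmd13, -1.58 for Snrpb, -1.86 for Snrnp200, -1.02 for Sf3b6, -2.50 for Hars, -2.18 for Rars, -1.38 for Cars, -1.39 for Orc4, -1.31 for Orc3 and -2.40 for Rfc3. The genes of the study's figure panel gave -1.61 for Zpr1, -1.55 for Dmap1 and -1.11 for Dnajc2, and the pair lower at both stages -1.80 for Eaf1 and -1.49 for Itpa.

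Genes called higher at morula gave fitted differences of -8.89 for Tdpoz4, -1.15 for Ubtfl1, -1.64 for Arg2, -4.45 for Obox8, -2.59 for Obox6, -2.65 for Trim43c, -1.45 for Omt2b, -1.73 for Nupr1 and -2.53 for Gata4, and fitted values against controls at or near 0 are no bound. Genes of other lists, not called higher at morula, gave -1.43 for Psph, -2.29 for Oog1, -2.46 for Etv3, -1.34 for Rpl39l, -2.04 and -2.56 for the gene models of Myl12b, -1.74 for Pfn1, -1.16 for Eif4ebp1, -1.21 for Gsta4, -2.30 for Derl1, -1.40 for Selenok and -1.15 for H13.

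Higher differences were 1.88 for Btbd19, 1.87 for Rpgrip1, 1.66 for Upp1, 1.46 for Igf2bp1, 1.43 for Klhdc2, 1.33 for G2e3, 1.29 for Rsbn1l, 1.10 for Aven, 1.09 for Cfap97, 1.07 for Ipo9, 3.85 for Col4a2, 1.95 for Sparc, 1.75 for Uhrf1 and 2.81 for Abracl.

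Of further genes picked after their values were seen, Gm12613 (-10.43) was at 0 and 0.01 FPKM in morula controls and 23.3 and 55.6 with dTAG13, at least 28.8-fold higher against the floor of 3 counts, and all of its words occur in other genes. The difference of 4930550L24Rik (-6.35) rested on 1 morula dTAG13 library, at 37.7 against 2.56 FPKM in the other. Its call was lost without that library (difference -3.31) and also without morula DMSO replicate 1 (difference -5.585). Fkbpl gave -1.97. Nfkb1 (5.00) was at 0.04 and 0.07 FPKM in morula dTAG13 libraries, with 3 counts or fewer, and its call was lost or could not be tested in 3 of the 10 fits without a library.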

How the results depend on the processing

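Calls of 455 and 59 (interaction, lower and higher), 621 and 79 (L2C) and 30 and 66 (morula) are counts that depend on the filter, the tool and single libraries. Without a filter they included 828 lower and 141 higher interaction calls, 190 higher at L2C, and 89 lower and 204 higher at morula. A test against a fold of 1.5 gave 204 and 14 interaction calls, 25 higher at L2C, and 4 lower and 18 higher at morula. With no fold threshold 1153 and 221 genes were called at L2C and 133 higher at morula. DESeq2 gave 139 higher interaction calls, 132 higher at L2C, and 78 and 118 at morula, and all 18 RNA-seq libraries in 1 fit gave 163, 151, 110 and 111. limma voom gave 38 higher interaction calls and 26 higher at morula, and a filter of 10 counts in 2 of the 10 libraries gave 37 higher interaction calls. The cause of these changes was not tested.

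Leaving out 1 library gave 255 to 667 lower and 24 to 107 higher interaction calls, 582 to 613 and 62 to 89 at L2C, and 7 to 65 and 17 to 248 at morula. The extremes came without morula DMSO replicate 1 (255, and 17 at morula), morula DMSO replicate 2 (667, 107, 65 and 248) and morula dTAG13 replicate 1 (24 and 7). Of the 455 and 59 genes, 181 and 7 were called under every alternative. Over named genes, 1765 values kept their direction and their side of the adjusted p threshold of 0.05. Of the others, 148 no longer passed that threshold, 8 newly passed it and 20 changed sign. The fold and FPKM parts of a call were not counted here. The signs that changed were those of genes with no interaction call. Gabpb2 became 0.057 and 0.066 (upper-quartile and total scaling), Trim11 -0.028 (L2C libraries thinned), Gm14124 0.018, 0.086, 0.090, 0.019 and 0.095 (RLE, upper-quartile, totals, DESeq2, thinned) and Mapk1ip1l -0.00641 and -0.031 (other filter, none). Leaving out a library gave ranges of -0.30 to 0.20 for Gabpb2, -0.58 to 0.15 for Lyrm2, -0.073 to 0.55 for Trim11, -0.19 to 0.19 for Gm14124, -0.82 to 0.32 for Ccdc137, -0.17 to 0.41 for Mapk1ip1l and -0.040 to 0.47 for Zfp384.

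Same-numbered libraries correlated by 0.0095 to 0.043 in their deviations, so the numbers were not taken to pair samples. With a replicate block 495 and 44 interaction calls, 631 and 79 at L2C and 23 and 74 at morula were made. With the L2C libraries thinned to the median total of the morula libraries, 608 genes were called lower and 78 higher at L2C, and 468 and 61 in the interaction.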
